A study of Drosophila melanogaster with 6 samples.

Results

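Eip74EF and Eip75B are a pair of early ecdysone response genes on chromosome arm 3L of Drosophila melanogaster, and the replication timing of their DNA was followed in Kc cells. Eip74EF was represented by the 37 windows that lie wholly within 3L:17540001-17640000, an interval of 100 kb. Eip75B was represented by the 57 windows within 3L:17930001-18080000, an interval of 150 kb. Together these are 94 of the 55900 windows on 14 sequences. A window is a member by its position, but the pair of genes was picked with earlier results of these data known, so their p-values describe these libraries and are no independent support. Each window spans 10 kb and the next begins 2.5 kb further on, so neighbours share reads and only 10 windows of Eip74EF and 15 of Eip75B do not overlap one another. All 94 had reads and were among the 53434 windows tested. Coordinates are those of the deposited values, counted from 1 and read as Release 5 of the genome, and exons, introns and transcript starts within the intervals were not used here.

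Ecdysone is the steroid hormone that times moulting and metamorphosis in insects. It binds a heterodimer of the nuclear receptors EcR and Usp, which turns on a small set of early genes, seen in salivary glands as the early puffs of the polytene chromosomes. The early genes encode transcription factors that in turn control many late genes. Eip74EF, in the puff at 74EF, encodes an ETS-domain transcription factor, and Eip75B, in the puff at 75B, encodes a nuclear receptor that binds haem. Kc cells respond to ecdysone in culture, but the labels name no hormone treatment, and transcription was not measured. In many animal cells active chromatin is copied early in S phase and repressed chromatin late.

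The study measured when each part of the genome takes up label during S phase. Kc is a female line derived from late embryos, with the genotype se/e, and all 6 libraries are labelled WT. A pulse of BrdU, an analogue of thymidine, marked DNA made within 1 hour (50 µg/ml), and cells were then sorted by DNA content into the fractions Early S, Mid S and Late S before the marked DNA was pulled down with an antibody and sequenced. There were 2 libraries per fraction, numbered 1 and 2, and nothing in the labels says that these came from separate cultures, so p-values measure only the spread between libraries, which may be technical.

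Values are RPKM, read counts scaled to window length and to library size, so each value is relative to its own library's total. The libraries held 2936097 and 1892986 reads (Early S), 2801800 and 1981524 reads (Mid S), and 1856781 and 1384200 reads (Late S). Late S gave the fewest reads at the genes, with a median per window of 40 and 53 at Eip74EF and of 38 and 37 at Eip75B. The median Early S window held 484 and 349 reads at Eip74EF and 503 and 353 at Eip75B. Replicate 2 was mostly above replicate 1 at both genes. Of the 37 windows of Eip74EF this held in 36 for Early S, in 22 for Mid S and in 30 for Late S. Of the 57 windows of Eip75B it held in 51 for Early S and in 48 for either later fraction. The gap was widest for its size in Late S, and the interval differences are therefore also given without each Late S library.

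Eip74EF carried most of its label in Early S, less in Mid S and least in Late S. Its mean over the interval was 16.7 and 18.4 RPKM in Early S, 7.74 and 8.37 RPKM in Mid S, and 2.16 and 3.46 RPKM in Late S. The 3 fractions did not overlap, and the 2 Late S libraries differed by more, relative to their level, than the libraries of either other fraction. The means were 17.6 ± 1.20, 8.05 ± 0.445 and 2.81 ± 0.919 RPKM in Early S, Mid S and Late S (SD, n = 2 each). Counting error does not cover the gap between the Late S libraries. Over the non-overlapping windows the exact 95% Poisson intervals ran from 3.25 to 3.89 RPKM in replicate 2 and from 1.97 to 2.40 RPKM in replicate 1. The Early S intervals did not overlap either, at 17.7 to 18.9 RPKM in replicate 2 and 16.3 to 17.3 RPKM in replicate 1. Such intervals cover counting error only.

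Late S minus Early S at Eip74EF was -2.68 ± 0.348 on the log2 scale of the interval mean (SE), which puts Late S at 0.156 of the Early S level. In an exact two-sided permutation test of the order early, mid, late over the 90 arrangements of the 6 libraries, p was 0.0222, the smallest that design can give. Without either Mid S library the exact permutation p was 0.0667, the smallest that 5 libraries can then give, and the same held for every other exact test with p = 0.0222. The difference was -2.34 without Late S replicate 1 and -3.02 without Late S replicate 2. Mid S minus Early S was -1.12 ± 0.0896 and Late S minus Mid S was -1.56 ± 0.345. These steps of the interval mean were given no test, since an exact permutation test of 2 libraries against 2 cannot go below 0.333, and limma's fit, which pools the spread of all 3 fractions, was used per window only.

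Eip75B showed the same order. Its mean was 16.4 and 18.3 RPKM in Early S, 5.79 and 6.48 RPKM in Mid S, and 2.05 and 2.79 RPKM in Late S. Again no fraction overlapped another, and every library of Mid S was below both Mid S libraries of Eip74EF. The means were 17.3 ± 1.36, 6.13 ± 0.487 and 2.42 ± 0.522 RPKM in Early S, Mid S and Late S (SD, n = 2 each). Late S minus Early S was -2.85 ± 0.236 on the log2 scale (SE), which puts Late S at 0.138 of the Early S level, with p = 0.0222 in the same exact permutation test. The difference was -2.63 without Late S replicate 1 and -3.08 without Late S replicate 2. Mid S minus Early S was -1.50 ± 0.114 and Late S minus Mid S was -1.35 ± 0.236.

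**Figure D1:**
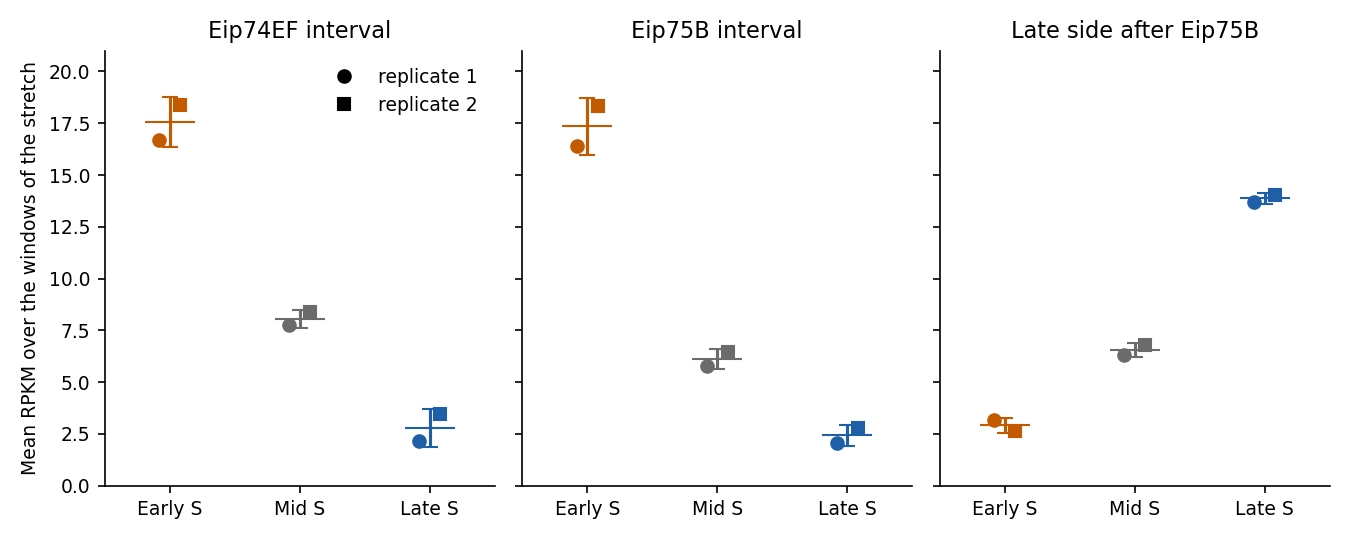
Mean RPKM over the windows of each stretch (vertical axis) in Early S, Mid S and Late S (horizontal axis), 1 panel per stretch, with a circle for replicate 1, a square for replicate 2, a dash for their mean and error bars of 1 SD. At Eip74EF and Eip75B the Early S libraries lie between 16.4 and 18.4 RPKM and the Late S libraries between 2.05 and 3.46 RPKM, and the order is turned round on the late side after Eip75B.

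Given as shares of the summed RPKM of 1 replicate number, Eip74EF had an Early S share of 62.8% and 60.9%, a Mid S share of 29.1% and 27.7%, and a Late S share of 8.10% and 11.4%. Eip75B had an Early S share of 67.6% and 66.4%, a Mid S share of 23.9% and 23.5%, and a Late S share of 8.48% and 10.1%. Each library was scaled to its own total, so these are shares of relative label and not of the DNA made. Eip75B had a larger Early S share and a smaller Mid S share than Eip74EF under both replicate numbers, while its Late S share was higher under number 1 and lower under number 2.

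Eip75B and Eip74EF had nearly the same Early S level and parted in Mid S. The log2 ratio of Eip75B to Eip74EF within each library was -0.03 and -0.01 in the pair of Early S libraries. It was -0.42 and -0.37 in the Mid S pair and -0.07 and -0.31 in the Late S pair. The Mid S ratios were the lowest of the 6 and both lay outside the range of the Early S ratios, a description with no test. Their Late S minus Early S differences were not shown to differ. The difference between the genes was -0.17 ± 0.120 (SE) with p = 0.378 in the exact two-sided permutation test. The arrangements of that test also move the low Mid S ratios into Early S and Late S, so it is weak for this difference. Adjusted over the 5 exact tests of the genes, the p-values of 0.0222 became 0.0278.

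The result per window was uniform. In limma's fit to all 53434 tested windows, called at a Benjamini-Hochberg adjusted p under 0.05, Late S was lower than Early S in 37 of 37 windows of Eip74EF and in 57 of 57 of Eip75B, where 37.6% of all tested windows were called lower and 81.8% in either direction. The largest adjusted p by limma among them was 1.30e-05 at Eip74EF and 0.000157 at Eip75B. Both Late S libraries were below both Early S libraries in all 94 windows, and the order Early S, Mid S, Late S held without overlap in all 94. Because windows share reads, these counts describe 2 intervals and not 94 independent places.

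Late S was lower than Mid S in 37 of 37 windows of Eip74EF and in 57 of 57 of Eip75B, against 38.7% of all tested windows called lower and 65.6% in either direction. Mid S was lower than Early S in 36 of 37 windows of Eip74EF and in 56 of 57 of Eip75B, against 20.5% of all tested windows called lower and 63.9% in either direction. The windows not called were 3L:17607501-17617500 at Eip74EF, with a Mid S minus Early S difference of -0.90 and a limma adjusted p of 0.0522, and 3L:18042501-18052500 at Eip75B, with -1.37 and a limma adjusted p of 0.0680. Mid S was called lower than Early S less often when an Early S or a Mid S library was left out, but not when a Late S library was. Without Early S replicate 2, Mid S replicate 1 or Mid S replicate 2, Mid S was lower than Early S in 21 of 37 windows of Eip74EF each time and in 44, 42 and 47 of 57 windows of Eip75B, while 12%, 12.4% and 12.1% of all tested windows were called lower. Without Early S replicate 1 these counts were 27 of 37 and 50 of 57, against 13.9% of all tested windows. Late S was lower than Mid S in 32 of 37 and 47 of 57 windows without Mid S replicate 2, against 26.1% of all tested windows, and in 34 of 37 and 52 of 57 without Mid S replicate 1, against 25.2%. The direction was the same in each of these windows that was called.

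Within Eip74EF the Early S level varied little, and the other fractions varied more for their size. Window means ran from 14.5 to 22.0 RPKM in Early S, from 5.24 to 10.3 RPKM in Mid S and from 1.80 to 3.75 RPKM in Late S. The window richest in both Early S and Mid S, 3L:17620001-17630000, had 20.7 and 23.2 RPKM in Early S, 9.57 and 11.1 RPKM in Mid S, and 2.15 and 4.05 RPKM in Late S. Its neighbour at the end of the interval, 3L:17630001-17640000, had the highest mean Late S level of the gene, 3.02 and 4.48 RPKM. By the means of the 2 libraries, the peaks of all 3 fractions thus lay in the last 20 kb of the interval, on the side that faces Eip75B. Single libraries did not all peak there. Late S peaked at 3L:17592501-17602500 in replicate 1 (3.23 RPKM) and at 3L:17607501-17617500 in replicate 2 (5.13 RPKM). Mid S replicate 1 peaked at 3L:17612501-17622500 (9.96 RPKM).

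The window 3L:17565001-17575000 had the lowest mean Mid S and Late S levels of Eip74EF and its lowest Late S minus Early S difference. It had 13.6 and 15.9 RPKM in Early S, 5.53 and 4.95 RPKM in Mid S, and 1.29 and 2.31 RPKM in Late S. The Late S minus Early S difference was -3.06 ± 0.254 (SE; limma adjusted p = 7.93e-08). The highest difference of the gene, -2.23, was at 3L:17545001-17555000, and the lowest Early S level, 14.4 and 14.6 RPKM, was at 3L:17540001-17550000. Both lay at the outer end of the interval, away from Eip75B.

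Eip75B varied more along its length than Eip74EF, with a dip and a slope towards its end. Window means ran from 1.92 to 22.7 RPKM in Early S, from 0.700 to 10.7 RPKM in Mid S and from 0.252 to 4.51 RPKM in Late S. The richest Early S window, 3L:17985001-17995000, had 21.5 and 23.9 RPKM in Early S, 5.93 and 5.70 RPKM in Mid S, and 2.91 and 2.96 RPKM in Late S. The lowest Late S minus Early S difference of the gene was near it, at 3L:18002501-18012500. There Early S had 18.7 and 22.8 RPKM, Mid S 5.10 and 5.35 RPKM, and Late S 1.78 and 1.81 RPKM, a Late S minus Early S difference of -3.50 ± 0.188 (SE; limma adjusted p = 1.45e-08). The middle of the interval thus held both the highest Early S level and the lowest difference.

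The dip was at 3L:18040001-18050000, the lowest window of Eip75B in all 3 fractions. It had 1.67 and 2.17 RPKM in Early S, 0.642 and 0.757 RPKM in Mid S, and 0.215 and 0.289 RPKM in Late S. All 6 libraries were low there, and the order of the fractions was that of the rest of the gene. The Late S minus Early S difference was -2.77 ± 0.451 (SE; limma adjusted p = 5.34e-05), on 4 reads in each Late S library. Whether repeated sequence or another limit on aligning reads lowers this window was not tested.

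The last window of Eip75B, 3L:18070001-18080000, had the highest Late S level and the highest Late S minus Early S difference of the gene. It had 13.9 and 17.6 RPKM in Early S, 10.4 and 10.3 RPKM in Mid S, and 3.61 and 5.42 RPKM in Late S. The Late S minus Early S difference was -1.82 ± 0.196 (SE; limma adjusted p = 9.35e-07). The highest Mid S level of the gene was next to it, 9.67 and 11.8 RPKM at 3L:18060001-18070000. Mid S and Late S label were thus already higher in the last 20 kb of the interval than in its middle.

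**Figure D2:**
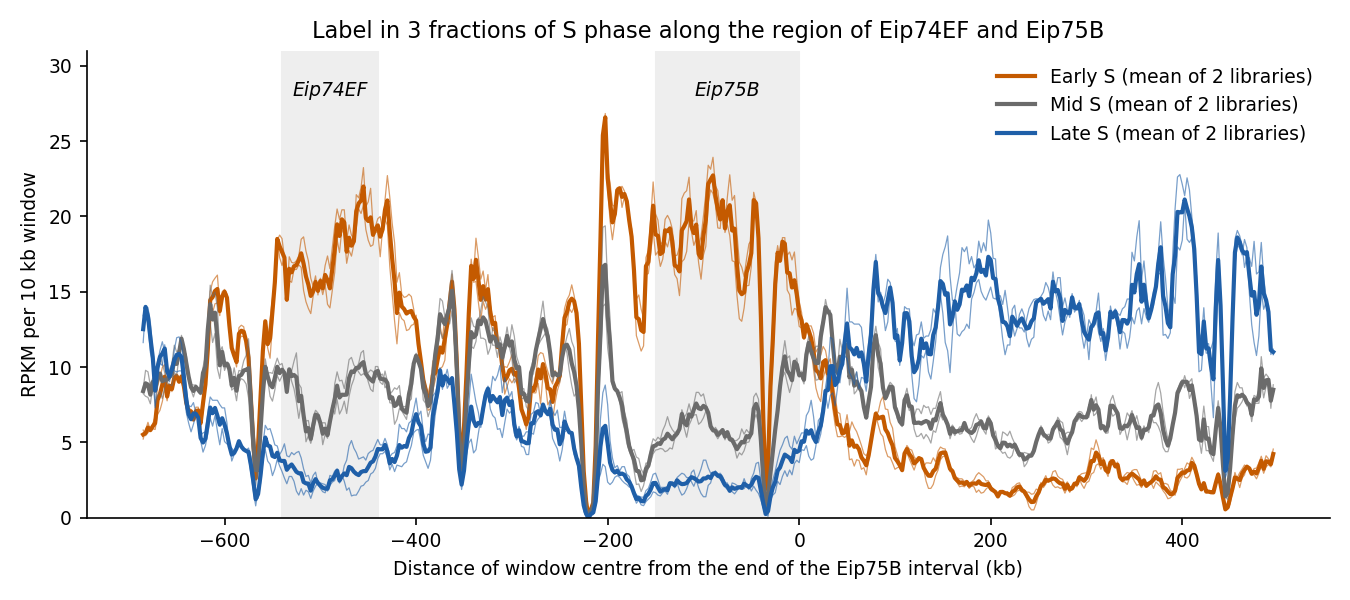
RPKM per 10 kb window (vertical axis) against the distance of the window centre from the end of the Eip75B interval in kb (horizontal axis), with a line for the mean of the 2 libraries of each fraction and thin lines for the single libraries. Early S is the highest fraction across both shaded gene intervals, drops to 1.92 RPKM in the dip of Eip75B, and lies below Late S from 32.5 kb after the interval.

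Both genes stood high in Early S and low in Late S among all windows. The interval mean in Early S was above 93.7% of all tested windows for Eip74EF and above 93.3% for Eip75B. In Mid S these shares were 53.1% and 31.8%, and in Late S 14.9% and 12.5%. In Mid S, then, Eip74EF was close to the middle of all windows and Eip75B below it.

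The difference was far from the median of the arm. Over windows the median Late S minus Early S difference was -2.71 at Eip74EF and -2.94 at Eip75B, against 0.15 on 3L and 0.23 over all tested windows. The middle 90% of 3L windows lay between -2.66 and 2.92, and 2.82% of all tested windows were lower than the Eip74EF median and 1.74% lower than the Eip75B median. On 3L alone these shares were 4.65% and 3.54%. Set against the median of 3L in the same library, Late S minus Early S was -2.78 ± 0.329 at Eip74EF and -2.96 ± 0.223 at Eip75B (SE; exact two-sided permutation p = 0.0222 each). The median over all tested windows was shifted for Mid S too, by 0.36 for Mid S minus Early S and by -0.17 for Late S minus Mid S. With every library centred on its median, Mid S minus Early S was -1.44 at Eip74EF and -1.82 at Eip75B.

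Other stretches had values like these. Of 1188 tiles of 100 kb on X, 2L, 2R, 3L, 3R and 4, 25 had a lower Late S minus Early S difference than Eip74EF and 15 a lower one than Eip75B, which is 2.10% and 1.26%. Of these, 10 and 7 were among the 231 tiles of 3L. The median tile was at -0.04.

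**Figure D3:**
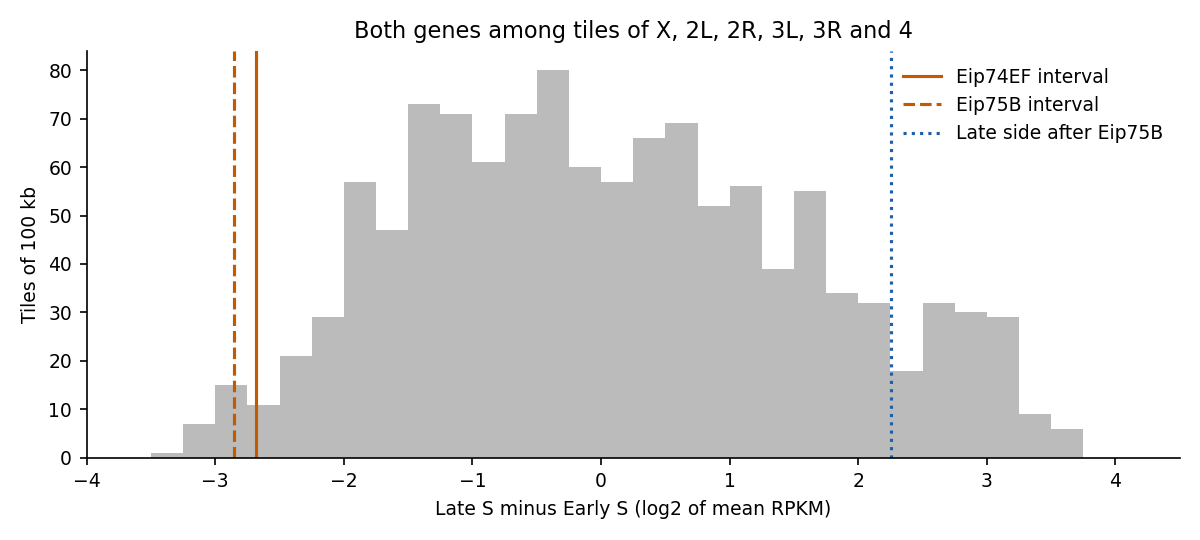
Number of 100 kb tiles (vertical axis) by Late S minus Early S, log2 of the mean RPKM (horizontal axis), for 1188 tiles, with vertical lines for the 2 genes and the late side after Eip75B. Both genes lie in the low tail, at -2.68 and -2.85, and the late side lies on the opposite flank, at 2.26.

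The tiles most like each gene over the 6 libraries were sought among 977 tiles of X, 2L, 3L, 3R and 4, by the root mean square difference of the log2 mean RPKM. For Eip74EF they were X:16200001-16300000 at 0.113, 3L:1300001-1400000 at 0.124 and 3R:8200001-8300000 at 0.176. For Eip75B they were 3L:100001-200000 at 0.114, 3L:11300001-11400000 at 0.121 and X:7900001-8000000 at 0.140. The median tile differed by 1.23 from Eip74EF and by 1.33 from Eip75B, and the genes differed from each other by 0.263. The 3 tiles of each gene were picked as the closest of 977, so their smaller differences do not tell how alike the genes are. The genes differed less from each other than the median tile did from either. The nearest tile to Eip75B had 18.2 and 19.7 RPKM in Early S, 5.81 and 6.45 RPKM in Mid S, and 1.78 and 2.87 RPKM in Late S.

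The 290 kb between the genes, 3L:17640001-17930000, were also labelled mainly early, on average less so. Their mean was 12.6 and 12.6 RPKM in Early S, 8.89 and 9.31 RPKM in Mid S, and 4.54 and 5.74 RPKM in Late S. The Late S minus Early S difference was -1.30 ± 0.169 (SE). Of 112 tested windows 98 were called lower in Late S, none was called higher, and 14 were not called. Across the whole set of tested windows 37.6% were called lower and 44.2% higher. Early S was the highest fraction in 79 of these 112 windows and Mid S in 33, and the remaining window of the stretch had no read in any library. Late S was not the highest fraction in any window between the genes. The stretch was uneven, and its highest Early S window, 3L:17872501-17882500, was above every window of either gene. That window had 26.3 and 26.8 RPKM in Early S, 14.2 and 19.4 RPKM in Mid S, and 3.39 and 8.81 RPKM in Late S, with a Late S minus Early S difference of -2.27 (limma adjusted p = 1.04e-05).

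The lowest difference between the genes was at 3L:17915001-17925000, just before the Eip75B interval. It had 16.1 and 17.3 RPKM in Early S, 2.86 and 3.63 RPKM in Mid S, and 1.08 and 1.81 RPKM in Late S, a Late S minus Early S difference of -3.55 (limma adjusted p = 3.27e-08). This is below every window of Eip75B, so the strong early stretch runs past the start of the interval. The highest difference, -0.20 at 3L:17700001-17710000, was not called (limma adjusted p = 0.284). In the Release 6 gene order 48 protein-coding genes lie between Eip74EF and Eip75B, with Vps60, anchor and Pep on the Eip74EF side, and they were not placed in windows.

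After Eip75B the fractions crossed within a short distance. Going along 3L in 10 kb steps, the Late S minus Early S difference was -2.16 at 3L:18060001-18070000 and -1.82 in the last window of the interval. It was then -1.25, -1.09, -0.54, 0.29 and 0.86 in the next 5 windows. The window 3L:18080001-18090000, the first after the interval, had 11.9 and 12.1 RPKM in Early S, 8.89 and 9.44 RPKM in Mid S, and 4.47 and 5.63 RPKM in Late S. The window 3L:18120001-18130000 had 5.76 and 5.44 RPKM in Early S, 11.1 and 9.94 RPKM in Mid S, and 10.2 and 10.2 RPKM in Late S. Over these 50 kb Early S label fell below both other fractions, in both libraries.

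The curves crossed in the order Mid S over Early S, Late S over Early S, Late S over Mid S. Mid S overtook Early S 16.1 kb after the interval, Late S overtook Early S 32.5 kb after it, at position 18112505, and Late S overtook Mid S 46.7 kb after it. For replicate number 1 alone these distances were 16.9, 38.2 and 51.2 kb, and for number 2 alone 12, 29.0 and 33.9 kb. Positions were interpolated between window centres 2.5 kb apart and windows average over 10 kb, so the crossings are placed no more finely than that.

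Mid S was the highest fraction in between. From 3L:18092501 to 18130000 it led in 12 windows, of which 3 were called above both other fractions. Of all tested windows 2.43% were called above both other fractions, and 43.5% were called higher in Mid S than in Early S. The mean of the 50 kb after the interval, 3L:18080001-18130000, was 10.3 and 8.78 RPKM in Early S, 11.6 and 11.0 RPKM in Mid S, and 6.79 and 8.08 RPKM in Late S. Both Mid S libraries were above all 4 others, although their lead over Early S was small.

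By limma's calls the sign changed between a pair of windows that share no reads. The last window called lower in Late S than in Early S was 3L:18100001-18110000, and the first called higher was 3L:18115001-18125000. Of the 17 windows of these 50 kb, 9 were called lower, 3 higher and 5 were not called. The shares over all tested windows were 37.6% lower and 44.2% higher.

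The change was steep next to most of the genome. The largest change of Late S minus Early S over 50 kb, searched from 80 kb before to 120 kb after the end of the interval, was 2.80, with -1.76 at the window that starts at 18072501 and 1.04 at the one that starts at 18122501. Among 46919 positions on X, 2L, 2R, 3L and 3R, 2.32% had a larger change over 50 kb, and among the 9682 positions of 3L 1.34% did. The median of all positions was 0.857, the 95th percentile 2.47 and the 99th 3.10. The value for Eip75B is the largest in a searched stretch, while those positions are single ones, so the shares are a description. It was 3.65 without Late S replicate 2 and 2.73 without Late S replicate 1. The larger value starts at the low window 3L:18042501-18052500, which had 0.108 RPKM, or 2 reads, in Late S replicate 1.

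The steep part was the middle of the change. The difference went through -1 at 16.6 kb and through 1 at 47.0 kb after the interval, 30.4 kb apart. It reached 2 only at 135 kb.

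**Figure D4:**
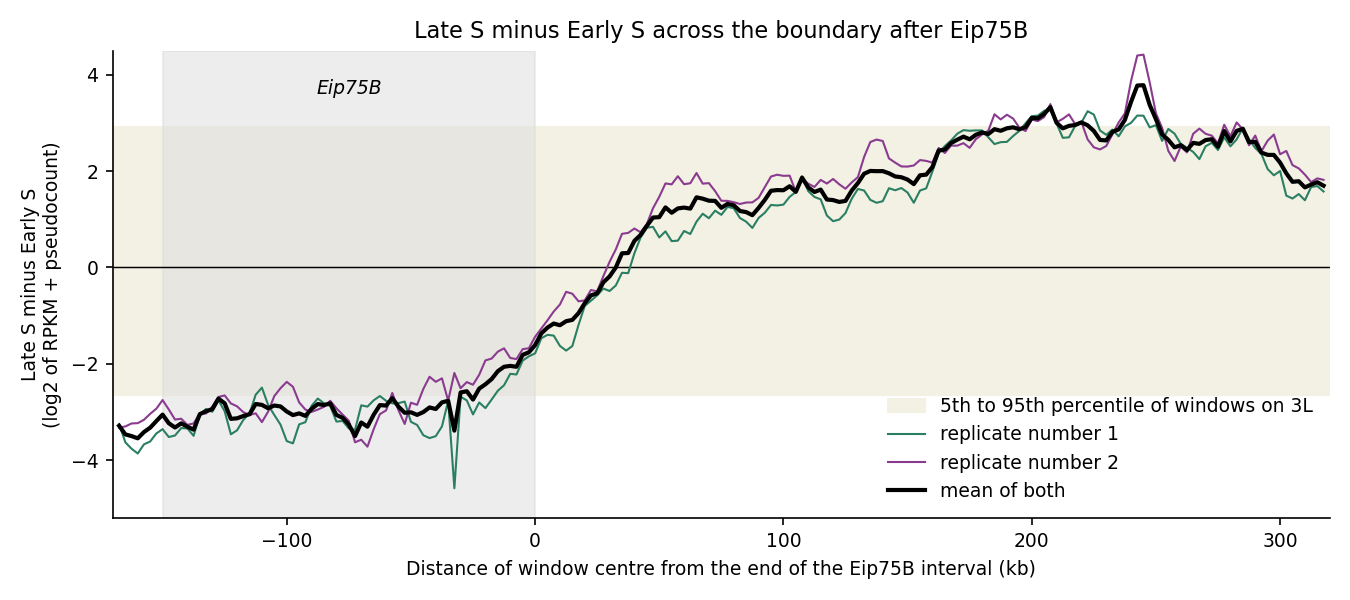
Late S minus Early S, log2 of RPKM plus the pseudocount (vertical axis), against the distance of the window centre from the end of the Eip75B interval in kb (horizontal axis), as the mean and for each replicate number, with a band for the 5th to 95th percentile of 3L windows. The mean crosses 0 at 32.5 kb, and the replicate numbers alone cross at 38.2 and 29.0 kb.

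Past the boundary the label was late throughout. Over 3L:18130001-18580000, the 450 kb that follow, the mean was 3.16 and 2.66 RPKM in Early S, 6.32 and 6.78 RPKM in Mid S, and 13.7 and 14.1 RPKM in Late S. Late S minus Early S was 2.26 ± 0.125 (SE), a Late S level 4.78-fold that of Early S, and all 177 windows were called higher in Late S, where 44.2% of all tested windows were called higher. The highest difference was 3.78 at 3L:18320001-18330000, where Late S had 269 and 166 reads and Early S 47 and 10. The late side lay 5.11 log2 units above Eip75B in this difference. The stretch was picked with these data known, so its values are a description. In the Release 6 gene order the cell death genes hid, grim, rpr and skl come after Eip75B, behind mRpS26 and mus304, and they were not placed in windows.

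The side of Eip74EF away from Eip75B changed more slowly. The 150 kb before it, 3L:17390001-17540000, had a mean of 9.91 and 9.83 RPKM in Early S, 9.31 and 9.45 RPKM in Mid S, and 6.93 and 6.95 RPKM in Late S. Late S minus Early S was -0.51 there, with 32 of 57 windows called lower, 5 called higher and 20 not called. Over all tested windows 37.6% were called lower and 44.2% higher. The last crossing of Late S and Early S before the gene was 90.8 kb from the interval, and for the replicate numbers alone it was 89.3 and 104 kb away. The difference took 62.5 kb between -1 and 1, and its largest change over 50 kb was -1.74 in the direction of the gene, a size that 18% of all positions exceeded. CycT, a cyclin that works in transcription elongation, is the protein-coding gene next to Eip74EF on that side in the Release 6 order. By the distance between -1 and 1 the region is thus asymmetric, with a wide slope before Eip74EF and a narrow one after Eip75B. This contrast was not tested.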

How the data were processed

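BrdU-labelled DNA was measured in 6 libraries of Kc cells, 2 each of Early S, Mid S and Late S; the source label of Mid S replicate 1 lacks its fraction, which the title gives. The authors deposited RPKM values in windows of 10 kb every 2.5 kb, per the file headers, and combined values per fraction, which served as an alternative. The aligner, build, read filters and input correction, if any, were not given in the sources used here, so their effect on low windows is unknown. Release 5 is taken from the sequence names and the length of 3L, and the Release 6 gene table gave names and order only. Every value was a whole number of reads within 0.02 reads in 100% of values. A count of 0 allows up to 3 reads, or 0.102 to 0.217 RPKM by library.

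Windows without a read in any library (2466) were dropped. log2(RPKM + 0.0341), the pseudocount being the lowest value above 0, was fitted with limma 3.58.1 in R 4.3.3 (lmFit, eBayes with trend; 3 residual and 10.7 prior degrees of freedom), which understates changes of low windows. Interval values are log2 of the mean RPKM over member windows, 1 per library, with exact permutation tests. Windows named are the highest and lowest of each gene in each fraction and in the Late S minus Early S difference; the uncalled Mid S windows and those outside the genes (the richest between them included) were named after their values were seen. The genes, flanks and rules were chosen with earlier results of these data known, so flanks and boundary have no test. Other steps ran in SciPy 1.17.1, pandas 2.3.3 and NumPy 2.4.6 under Python 3.11.15, with plots from matplotlib 3.10.9. Alternatives were other pseudocounts, a filter on low windows, centring, quantile normalization, non-overlapping windows, the combined values, narrower intervals, means of log2, the replicate block and each library left out.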

Additional observations from a re-analysis of the deposited data

How the results depend on the processing

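The direction of every difference of Eip74EF and Eip75B held under all alternatives run. With the replicate block the Late S minus Early S values were -2.68 and -2.85 for Eip74EF and Eip75B, and -2.78 and -2.96 relative to 3L, with an exact permutation p of 0.0556, the smallest 36 arrangements can give. The deviations of same-numbered libraries had correlations of -0.0308 (Early S and Mid S), 0.0240 (Early S and Late S) and 0.211 (Mid S and Late S). The labels do not say whether a number marks a shared culture, which is therefore not known. With the block in limma's fit all windows of both genes were called lower in all 3 contrasts. Of all tested windows, 37.9% were then called lower for Late S minus Early S and 82.4% in either direction. For Mid S minus Early S these shares were 21.3% and 65.5%, and for Late S minus Mid S 39.6% and 67.2%. With 1 library left out these 4 values ranged from -3.02 to -2.34, -3.08 to -2.63, -3.10 to -2.47 and -3.15 to -2.76, with an exact permutation p of 0.0667 by construction where a Mid S library was missing. Mid S minus Early S was -1.44 at Eip74EF and -1.82 at Eip75B with centred libraries, and -0.98 at Eip74EF with quantile normalization. The share of Eip74EF windows called in that contrast ranged from 56.8% to 100% with 1 library left out, against 97.3%. It fell only where an Early S or a Mid S library was left out. In those same fits the share of all tested windows called lower in that contrast fell too, as given above. The drop was thus not confined to Eip74EF.

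The change over 50 kb after Eip75B was 3.74 with quantile normalization and 3.39 for replicate number 1 alone, and ranged from 2.62 to 3.65 with 1 library left out (3.09 without Early S replicate 1). The values of 3.74, 3.65 and 3.39 start at a window with few reads. With windows above the 10th percentile of mean RPKM, an alternative chosen after seeing the data, number 1 alone gave 2.85 and number 2 alone 3.01. Depth limits Late S at the genes and Early S on the late side.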
